A study of Mus musculus with 20 samples.

Results

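The slow fibre contractile genes, 10 in all, were followed across 20 RNA sequencing libraries of mouse hindlimb muscle. They are the myosin heavy chain Myh7, the myosin light chains Myl2 and Myl3, the troponin subunits Tnnt1, Tnni1 and Tnnc1, the tropomyosin Tpm3, the Z-disc protein Myoz2, the calcium pump Atp2a2 and the calcium store protein Casq2. They were taken by symbol from the deposited table of 21844 genes. All 10 of the 10 symbols were present, each on 1 row, and all 10 passed the filter on low counts that left 14359 genes for testing. The rule that lists them names symbols and uses no threshold on a measured value, but the list was drawn up with earlier results of these data known.

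The study asked what loss of the clock transcription factor BMAL1 in muscle changes, with and without treadmill training. All mice carried a floxed Bmal1 gene and a Cre recombinase, written in the labels as Cre+:iMSBmal1 fl/fl, in the vehicle groups as well as in the knockout groups. The vehicle sedentary group had vehicle and no exercise, and the vehicle trained group had vehicle and 6 weeks of daily treadmill running. The knockout sedentary and knockout trained groups, labelled iMSBmal1KO, had the same 2 training states. Each of the 4 groups held 5 libraries. The agent that switches on Cre, its promoter and the age of the mice are not given in the sources used here. The muscle is named as the gastrocnemius in 2 places and as the tibialis anterior in another, and the time of collection as 48 hours in one and as 47 hours after the last exercise bout in the other.

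Muscle fibres of the slow type contract slowly, resist fatigue and burn fat and sugar with oxygen. They build their sarcomeres from a set of protein isoforms that differ from those of fast fibres: the myosin heavy chain sets the speed of the motor, the light chains tune it, and the troponin and tropomyosin isoforms set how the thin filament answers calcium. The calcium pump and the calsequestrin of the sarcoplasmic reticulum also have slow and fast forms. The mouse gastrocnemius and tibialis anterior consist mainly of fast fibres, so slow isoforms are minor transcripts there, and several of them are also the forms used in the heart.

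Total estimated counts per library lay between 10610333 and 19153527. Knockout-trained libraries 1 and 4, and libraries 3 and 5, differed by so little beyond sampling noise that each pair was summed and counted as 1 sample, so the knockout trained group has n = 3 and 18 samples entered the fits. Vehicle-trained library 2 stood apart from its group, where 3739 of 14359 genes lay over 2-fold above or below its group's other libraries, against 33 to 525 genes in the other 17 samples. Some results that include it are also given without it, among them the Casq2 and Tnni1 changes. Others are given with it only, such as the trained genotype changes of Tnnt1, Myh7, Pln, Myom3, Mb, Tnnc2, Tead4 and Fnip1. Arntl, the gene that encodes BMAL1, was not reduced by the knockout label. With vehicle, sedentary samples had 6.73 ± 0.738 CPM (counts divided by the TMM-scaled library total; SD, n = 5), and those labelled knockout had 12.6 ± 3.04 CPM (two-sided exact permutation test, p = 0.00794, the smallest that 5 against 5 can give). In trained muscle it was at 34.0 ± 61.4 CPM with vehicle (n = 5, 143.7 CPM in vehicle-trained library 2) and 11.4 ± 3.82 CPM with the knockout label (n = 3; exact permutation p = 0.786). The count covers the whole gene, so a deleted exon is not seen in it, and the groups are called by their labels throughout. The 6 listed markers of skeletal muscle fibres summed to 33620 to 56784 CPM over all samples. The labels do not say that the libraries of a group come from separate animals, so p-values measure the spread between these samples, which may be in part technical.

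The upstream sequences of 3 members are printed. Casq2 is the member that passed the test. Tnni1 and Myh7 did not pass it, but their trained values, as a ratio or as a level, did not overlap between genotypes. Each sequence is the 250 bases before the annotated start, on the gene's own strand, from RefSeq (GRCm38.p6). The Casq2 window lies on the plus strand at chr3:102086165-102086414, the Tnni1 window, at the first of its 2 starts, on the plus strand at chr1:135799171-135799420, and the Myh7 window, also at the first of 2 starts, on the minus strand at chr14:54994627-54994876. Capitals mark CANNTG, the general E-box of the basic helix-loop-helix factors, to which BMAL1 and the myogenic factors belong, and CATTCC, the TEAD-type motif, both searched on both strands.
Casq2: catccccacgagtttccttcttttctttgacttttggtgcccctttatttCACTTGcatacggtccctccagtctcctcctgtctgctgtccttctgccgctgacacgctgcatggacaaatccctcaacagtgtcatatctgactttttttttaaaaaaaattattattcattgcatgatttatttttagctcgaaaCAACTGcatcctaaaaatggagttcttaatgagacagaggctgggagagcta
Tnni1: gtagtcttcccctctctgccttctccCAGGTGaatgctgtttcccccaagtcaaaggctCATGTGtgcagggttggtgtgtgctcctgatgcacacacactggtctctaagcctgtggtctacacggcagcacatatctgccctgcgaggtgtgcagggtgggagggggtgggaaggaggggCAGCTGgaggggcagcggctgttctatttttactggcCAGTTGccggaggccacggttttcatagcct
Myh7: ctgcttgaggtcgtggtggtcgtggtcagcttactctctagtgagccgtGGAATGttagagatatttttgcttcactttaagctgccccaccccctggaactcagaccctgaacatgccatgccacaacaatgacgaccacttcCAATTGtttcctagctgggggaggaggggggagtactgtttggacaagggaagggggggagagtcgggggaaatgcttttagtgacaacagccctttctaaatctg

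Of the 10 members, 9 had an entry in the RefSeq promoter table, with 13 windows in all. The 2 windows of Myh7 overlap each other, as do the 2 of Tnni1, so the 13 are not separate stretches. For both Myl2 windows and the second windows of Tnni1 and Tpm3, the bases after the start were not found in the gene's annotated transcripts. CANNTG was in 13 of the 13 windows, as it was in 66.2% of all 32851 windows of this length. CACGTG, the form of CANNTG that BMAL1 binds with its partner CLOCK, was in 0 of the 13 windows and in 6.02% of all windows. CATTCC was in 3 of the 13 windows, 1 each of Myh7, Myl3 and Tnnc1, and in 12.6% of all windows. TATAAA was in 2 of the 13 windows and in 12.4% of all. The MEF2 site was in the window of Myoz2 alone and in 0.508% of all, and the D-box TTATGTAA in 0 and in 0.819%. These matches describe the letters of the windows and were not tested for binding.

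Casq2 was the member that changed. Casq2 encodes the calsequestrin of slow and cardiac muscle, which stores calcium inside the sarcoplasmic reticulum. In vehicle sedentary muscle its level was 33.7, 34.2, 32.3, 34.7 and 29.9 CPM in libraries 1 to 5. In knockout sedentary muscle it was 64.2, 80.6, 91.1, 103.8 and 112.7 CPM. All 5 knockout-labelled values lay above all 5 vehicle values. The means were 33.0 ± 1.94 and 90.5 ± 19.1 CPM (SD, n = 5 each), a 2.74-fold rise or 1.46 on the log2 scale (SE 0.272, adjusted p = 0.00455 by the quasi-likelihood test of edgeR with Benjamini-Hochberg adjustment over all genes). Over 26 alternative settings of the processing the adjusted p lay between 4.62e-06 and 0.0185. Across all 14359 genes tested in this comparison 2.33% were called, 1.02% as higher, and 3.93% had all knockout-labelled values above all vehicle values.

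Casq2 had the same order of groups in trained muscle. The 2 comparisons are not independent tests, because all 4 groups shared 1 fit and 1 estimate of spread. The level of Casq2 was 32.9, 7.9, 29.2, 12.6 and 21.3 CPM in vehicle-trained libraries 1 to 5, and 77.7, 67.5 and 72.4 CPM in the 3 knockout trained samples. The 3 knockout-labelled values stood close together and all above the vehicle values, which were themselves spread more than 4-fold (highest over lowest 4.16). The means were 20.8 ± 10.6 CPM (SD, n = 5) and 72.5 ± 5.09 CPM (SD, n = 3), a 3.49-fold rise or 1.81 on the log2 scale (SE 0.303, edgeR adjusted p = 0.00223). In this comparison 3.29% of all genes were called, 1.99% as higher, and 5.08% had all knockout-labelled values higher. Without vehicle-trained library 2, the lowest for Casq2, the log2 change was 1.61 (SE 0.222, edgeR adjusted p = 0.00013). The call was lost in 1 of the 26 alternatives, a fit to the 2 trained groups alone (log2 change 1.80, edgeR adjusted p = 0.171). The 2 genotype changes of Casq2 were not shown to differ by training state (interaction 0.35 on the log2 scale, SE 0.407, edgeR adjusted p = 0.825).

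**Figure D1:**
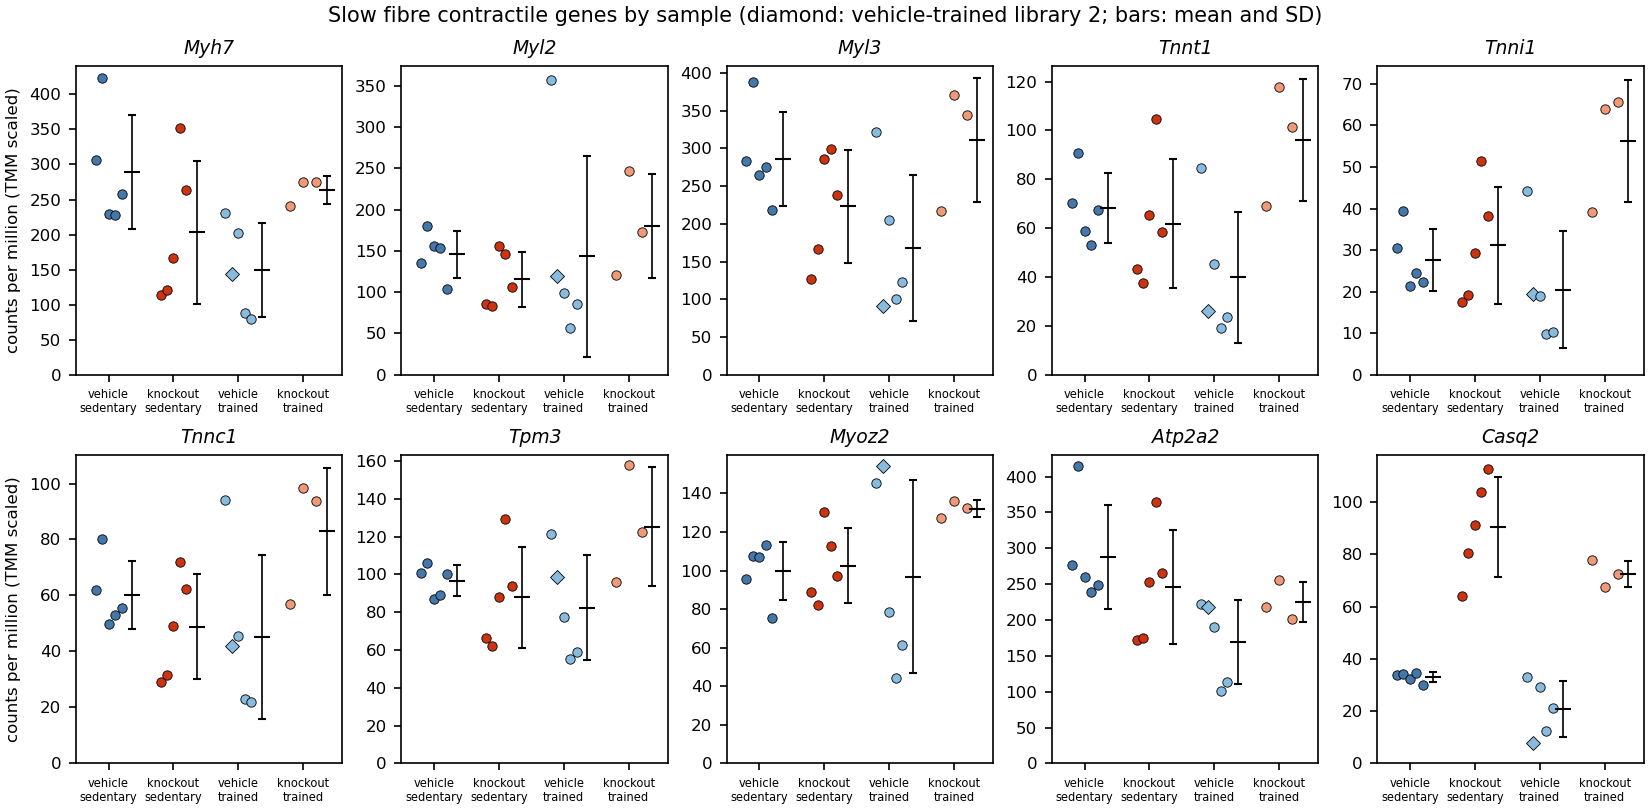
Level of each of the 10 slow fibre genes in CPM (vertical axes from 0) in every sample of the 4 groups, with the mean and SD beside the points and a diamond for vehicle-trained library 2. Casq2 stands at 64.2 CPM or more in every knockout-labelled sample and at 34.7 CPM or less in every vehicle sample, while the other 9 genes overlap between sedentary groups.

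In whole muscle, fewer cells of a type and less RNA of a gene per cell cannot be told apart, so each level here is that of the tissue. Because Casq2 is also the cardiac isoform, heart markers were read beside it. Of 7 listed heart markers 6 were in the table, their sum lay between 2.01 and 5.69 CPM over all samples with the ranges of the 4 groups overlapping, and Nppb, a natriuretic peptide of the heart, was at 0 in every sample of 3 of the 4 groups. The heart troponin Tnni3 averaged 0.0958 and 0.10 CPM in sedentary muscle without and with the knockout label. In trained muscle it averaged 0.0358 and 0.176 CPM, while the means of Nppa, Nppb and Ryr2 were lower with the label. Most of the heart sum came from Gja5, at group means of 2.96 to 3.81 CPM. Only 1 of the 6 heart markers passed the filter on low counts, so their sum says little about heart transcripts. Muscle spindle markers, of which 5 of 6 were in the table, summed to 7.69 to 12.2 CPM in vehicle sedentary and 8.31 to 17.1 CPM in knockout sedentary samples, which overlapped. The highest of the spindle markers, Myh7b (means of 7.02 and 7.28 CPM), is also listed below among other slow or oxidative fibre genes. Egr3, another spindle marker, had means of 0.989 and 2.67 CPM in sedentary muscle and 0.725 and 2.01 CPM in trained muscle. The mean of every spindle marker in the table was higher with the knockout label in both training states. The part of spindles in the Casq2 result was not tested. The summed level of the 5 satellite cell markers stood higher with the knockout label, though not every marker did. The sum was 41.0 to 50.4 CPM in vehicle sedentary and 51.0 to 63.4 CPM in knockout sedentary samples. In the trained groups it was 38.6 to 46.6 and 50.4 to 53.4 CPM. The mean of Pax7 did not rise in sedentary muscle (5.31 CPM with vehicle, 5.24 CPM with the knockout label). Nor did that of Myf5 in trained muscle (4.26 and 3.35 CPM), while the means of the other markers were higher in each state. None of the 5 was called in either comparison with all samples. Without vehicle-trained library 2, Cdh15, a cadherin of satellite cells, was called higher in both, with all knockout-labelled values higher and log2 changes of 0.36 in sedentary (SE 0.103, edgeR adjusted p = 0.0382) and 0.52 in trained muscle (SE 0.125, adjusted p = 0.0134), and the other 4 were not called. In that fit 6.98% of all genes were called in sedentary and 8.66% in trained muscle. The part of satellite cells in the Casq2 result was not tested.

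Set against its fast counterpart within each sample, Casq2 gave the same picture in sedentary muscle. Casq1 encodes the calsequestrin that fast fibres use. The log2 ratio of Casq2 to Casq1, in counts per length, was -6.11 ± 0.213 in vehicle sedentary and -4.72 ± 0.279 in knockout sedentary samples (SD, n = 5 each), with no overlap and a difference of 1.39. In trained muscle it was -6.16 ± 1.13 (n = 5) and -5.06 ± 0.206 (n = 3), a difference of 1.10, and the groups overlapped through vehicle-trained library 2, where Casq1 was at 125 CPM against 1411 CPM or more in every vehicle sedentary library. With that library left out the difference was 1.52 and all knockout-labelled values were higher.

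Casq2 also changed its place among the slow genes. Levels of different genes were compared as CPM per kilobase of exon. In vehicle sedentary muscle Myl3 was highest at 140.0 ± 30.5 CPM per kilobase, and did not overlap the next, Myl2, at 74.7 ± 14.4. Tnnc1, Atp2a2, Myh7, Tnnt1 and Myoz2 followed between 57.8 and 29.2, each overlapping its neighbour, then Tpm3 at 15.9 ± 1.36, which overlapped neither neighbour. Casq2 at 12.0 ± 0.708 and Tnni1 at 7.65 ± 2.08 were lowest and overlapped (SD, n = 5 each). Casq2 held rank 9 of 10 there and in vehicle trained muscle, at 7.59 ± 3.88, but rank 5 in knockout sedentary muscle, at 33.1 ± 6.99, and rank 8 in knockout trained muscle, at 26.5 ± 1.86 CPM per kilobase (n = 3). In all 4 groups Myl3 was the highest and Tnni1 the lowest member. In both knockout-labelled groups Casq2 overlapped the genes on either side of it.

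The other 9 members did not pass the test in sedentary muscle. Their log2 changes with the knockout label ran from -0.51 for Myh7 to 0.17 for Tnni1, with a median of -0.23, and 7 of 9 were below 0. The median over all genes tested was 0.01. Adjusted p-values (edgeR) lay between 0.754 and 1.00. All 10 members together had a median of -0.18.

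The motor and its light chains were variable among sedentary knockout-labelled samples. Myh7 encodes the slow beta myosin heavy chain. Its level was 307, 423, 229.9, 228 and 259 CPM in vehicle sedentary libraries 1 to 5, and 113, 121, 167, 351 and 263 CPM in knockout sedentary libraries 1 to 5. Knockout-labelled libraries 1, 2 and 3 were below every vehicle value, and libraries 4 and 5 were within the vehicle range. The log2 change was -0.51 (SE 0.324, edgeR adjusted p = 0.754). Myl2 and Myl3, the slow regulatory and essential light chains, had log2 changes of -0.34 (SE 0.376) and -0.36 (SE 0.315), with edgeR adjusted p = 0.963 and 0.910. Reads of Myh7, Myl2, Myl3 and Atp2a2 may include those of genes on the opposite strand whose exons overlap theirs (Mhrt, Gm29015 and Gm31251 for Myh7, Ccdc63 for Myl2, Pth1r for Myl3 and Gm43361 for Atp2a2), because the strand setting of the counting is not given in the sources used here.

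Among the thin filament genes, Tnnt1, Tnni1 and Tnnc1 encode the subunits of slow troponin that bind tropomyosin, inhibit the motor and bind calcium, and Tpm3 a tropomyosin of slow fibres. Their sedentary log2 changes were -0.14, 0.17, -0.30 and -0.14, with SE between 0.221 and 0.371. Myoz2, a calcineurin-binding protein of the Z-disc, had 0.04 (SE 0.263), and Atp2a2, which encodes the SERCA2 calcium pump, -0.23 (SE 0.244). The values of every one of the 9 genes overlapped between the sedentary groups.

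**Figure D2:**
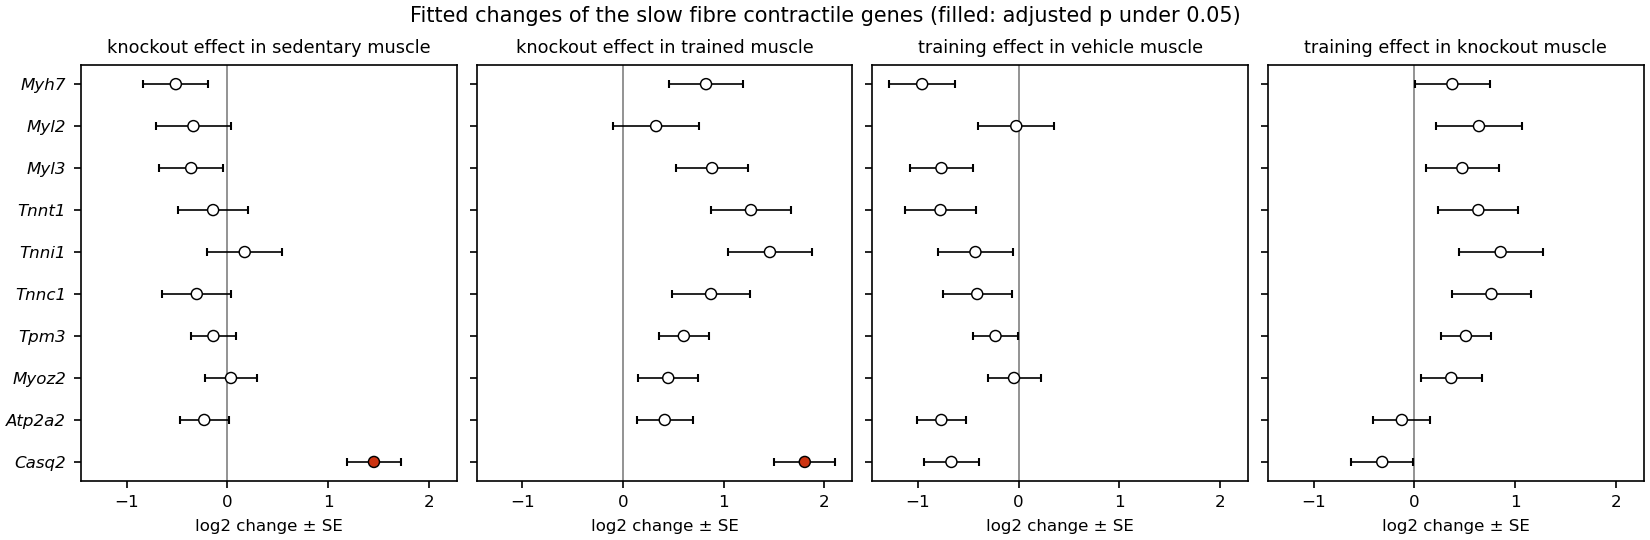
Fitted log2 change with its SE (horizontal axes) for the 10 slow fibre genes in the 4 pairwise comparisons, filled where the edgeR adjusted p is under 0.05. Casq2 is filled in both genotype comparisons, and the other 9 genes lie to the right of 0 in the trained genotype comparison without passing the test.

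In trained muscle all 9 of the other members had higher fitted levels in knockout-labelled samples, with a median log2 difference of 0.82 against -0.03 over all genes, but none passed the test. The differences ran from 0.33 for Myl2 to 1.46 for Tnni1. Both the knockout label in trained muscle and training in vehicle muscle are read against the vehicle trained samples, so their signs are not independent of each other. Marker sums of other cells also shifted between the trained groups: spindle markers summed to 1.65 to 10.7 CPM with vehicle and 9.19 to 17.8 CPM with the knockout label, and macrophage markers to 129 to 304 and 41.4 to 271 CPM. Both pairs of ranges overlapped, and the part of these cells in the slow gene values was not tested.

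The troponin subunits Tnni1 and Tnnt1 came nearest to the threshold. The level of Tnni1 was 44.3, 19.3, 19.0, 9.66 and 10.2 CPM in vehicle-trained libraries 1 to 5 and 39.2, 64.0 and 65.5 CPM in the 3 knockout trained samples. Vehicle-trained library 1 alone reached into the knockout-labelled range, and the other 4 were at 19.3 CPM or below. The log2 difference was 1.46 (SE 0.418, edgeR adjusted p = 0.0648). Without vehicle-trained library 2 it was 1.45 with an edgeR adjusted p of 0.0435, which passes, as 8.66% of all genes did in that fit, and without library 1 it was 1.95 with an adjusted p of 0.00452.

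Tnnt1 had 84.6, 26.1, 45.5, 19.0 and 23.8 CPM in vehicle-trained libraries 1 to 5 and 68.9, 118 and 101 CPM in the knockout trained samples. Library 1 again lay within the knockout-labelled range and the others below it. The log2 difference was 1.27 (SE 0.395, edgeR adjusted p = 0.0930). DESeq2 on the same counts called both genes, with adjusted p-values of 0.0180 for Tnni1 and 0.0340 for Tnnt1, and called 3 of the 10 members in all, where it called 6.32% of all genes.

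Myh7 was the other member whose trained values did not overlap. It was at 231, 144, 201.5, 88.4 and 79.6 CPM in vehicle-trained libraries 1 to 5 and at 240.4, 275.6 and 275.4 CPM in the knockout trained samples. Vehicle-trained libraries 1 and 3 came close to the knockout-labelled values, and libraries 4 and 5 were far below them. The log2 difference was 0.82 (SE 0.367, edgeR adjusted p = 0.255). Thus 2 of 10 members, Casq2 and Myh7, had all knockout-labelled values higher, as 5.08% of all genes did.

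The remaining members had smaller or less even differences. Tnnc1 (log2 difference 0.87, SE 0.388) and Myl3 (0.89, SE 0.357) passed the test in 1 of the 26 alternatives, when vehicle-trained library 1 was left out, with edgeR adjusted p-values of 0.0268 and 0.0289, and 5 members and 4.38% of all genes were called in that fit. Tpm3 differed by 0.60 (SE 0.252), Myoz2 by 0.45 (SE 0.30), Atp2a2 by 0.41 (SE 0.279) and Myl2 by 0.33 (SE 0.430). Myl2 was at 357 CPM in vehicle-trained library 1 and between 57.0 and 119 CPM in the other 4.

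In vehicle muscle the fitted training effect was below 0 for 10 of 10 members, with a median log2 change of -0.55 against 0.03 over all genes. It was below 0 for 9 of 10 when vehicle-trained library 2 was left out, with a median of -0.43. None was called, nor was any of the 14359 genes (0%). At an unadjusted p under 0.05, 2186 genes passed in edgeR, and DESeq2 called 15 genes after adjustment, none of them a member. The largest log2 changes of members were -0.96 for Myh7 (SE 0.326), -0.78 for Tnnt1 (SE 0.352), -0.77 for Atp2a2 (SE 0.246) and -0.77 for Myl3 (SE 0.317). Their edgeR adjusted p-values were 0.272, 0.316, 0.272 and 0.287.

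Markers of other cell types shifted in the same comparison, also without any call. Fitted changes were above 0 for 5 of 5 macrophage markers (median 1.07 on the log2 scale), 5 of 5 blood markers (0.55), 5 of 5 tendon markers (0.51) and 4 of 5 adipocyte markers (0.76). They were below 0 for 4 of 5 Schwann cell markers (median -0.48) and all 3 tested spindle markers (-0.47). The spindle markers include Myh7b, also listed as a slow or oxidative fibre gene. The 16 fast contractile genes had 11 below 0 and a median of -0.09. The part of these cells in the slow gene values was not tested.

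Atp2a2 alone among the members had all trained values below all sedentary values, as 1.08% of all genes did. The pump gene was at 277, 414, 260.5, 239 and 249 CPM in vehicle sedentary libraries 1 to 5 and at 223, 218, 190.6, 100.4 and 114 CPM in vehicle trained libraries 1 to 5. Trained libraries 4 and 5 were far below the rest, and the gap between the lowest sedentary and the highest trained library was small beside the spread of either group. The log2 change was -0.87 without vehicle-trained library 2 (SE 0.248, edgeR adjusted p = 0.343).

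In muscle labelled knockout, training gave fitted changes above 0 for 8 members and below 0 for Atp2a2 (-0.12) and Casq2 (-0.32), with a median of 0.49 against -0.02 over all genes. None was called, and 0% of all genes were, with 1393 genes at an unadjusted p under 0.05 in edgeR and 198 genes called by DESeq2. The count over all genes depended on single samples: it was 397 (2.76%) without the knockout trained sample made of libraries 1 and 4, and 45 (0.313%) without vehicle-trained library 1, with no member called in either fit. Tnni1 had the largest log2 change, 0.86 (SE 0.418, edgeR adjusted p = 0.532). For every member the values overlapped between sedentary and trained knockout-labelled samples, while 8.69% of all genes did not overlap. Without vehicle-trained library 2, which enters this comparison through the shared estimate of spread, 0.843% of genes were called and no member. Other lists also had fitted changes mostly above 0 here: 13 of 16 fast contractile genes (median 0.25 on the log2 scale), 6 of 6 skeletal fibre markers (0.38), and 5 of 5 markers each of blood (0.98), adipocytes (1.18) and tendon (0.63). None of these genes was called, and their part in the slow gene values was not tested.

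The dependence of training on genotype was above 0 for all 10 members, from 0.35 for Casq2 to 1.41 for Tnnt1 on the log2 scale, with a median of 0.96 against -0.02 over all genes. This sign was shared by other lists: 15 of 16 fast contractile genes (median 0.34), 6 of 6 skeletal fibre markers (0.37) and 5 of 5 markers each of blood (0.42) and adipocytes (0.17) were above 0, while 5 of 5 macrophage markers were below it (-1.02). With vehicle-trained library 2 left out, the slow members had 10 of 10 above 0, fast contractile genes 14 of 16 and adipocyte markers 2 of 5. No member passed (smallest edgeR adjusted p = 0.647), and 0% of all genes did, with 1076 genes at an unadjusted p under 0.05 in edgeR and 26 called by DESeq2. The smallest edgeR adjusted p among the members other than Casq2 was 0.324 without vehicle-trained library 2.

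The share of Myh7 among the 4 adult myosin heavy chains is a ratio within each sample and does not depend on how libraries were scaled. In counts per length, Myh4, the heavy chain of the fastest fibres, averaged 85.6% to 89.0% of the 4 in every group. Myh7 held 0.711% ± 0.142 in vehicle sedentary, 0.541% ± 0.211 in knockout sedentary and 0.506% ± 0.274 in vehicle trained samples (SD, n = 5 each), and 0.841% ± 0.181 in knockout trained samples (n = 3). The ranges overlapped in all 4 comparisons. By two-sided exact permutation tests the knockout label gave p = 0.175 in sedentary and 0.143 in trained muscle, and training gave p = 0.198 with vehicle and 0.107 with the knockout label. Adjusted over the 4 comparisons each was 0.198. The smallest p these designs allow is 0.00794 for 5 against 5 and 0.0357 for 5 against 3.

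Among the 10 slow genes set against their fast counterparts, Tnni1 was the other one besides Casq2 with a comparison free of overlap. No share was computed for ratios of other gene pairs, so how often such pairs separate is not known. Of single genes, 5.08% had all knockout-labelled values higher in trained muscle. The log2 ratio of Tnni1 to Tnni2, the fast inhibitory troponin, was -9.04 ± 0.753 in vehicle trained samples (n = 5) and -7.64 ± 0.0563 in knockout trained samples (n = 3). All 3 knockout-labelled ratios were higher, with a difference of 1.40, and 1.39 without vehicle-trained library 2. The ratios of Myh7 to Myh4, Myl2 to Mylpf, Myl3 to Myl1, Tnnt1 to Tnnt3, Tnnc1 to Tnnc2, Tpm3 to Tpm1, Myoz2 to Myoz1 and Atp2a2 to Atp2a1 overlapped in all 4 pairwise comparisons.

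**Figure D3:**
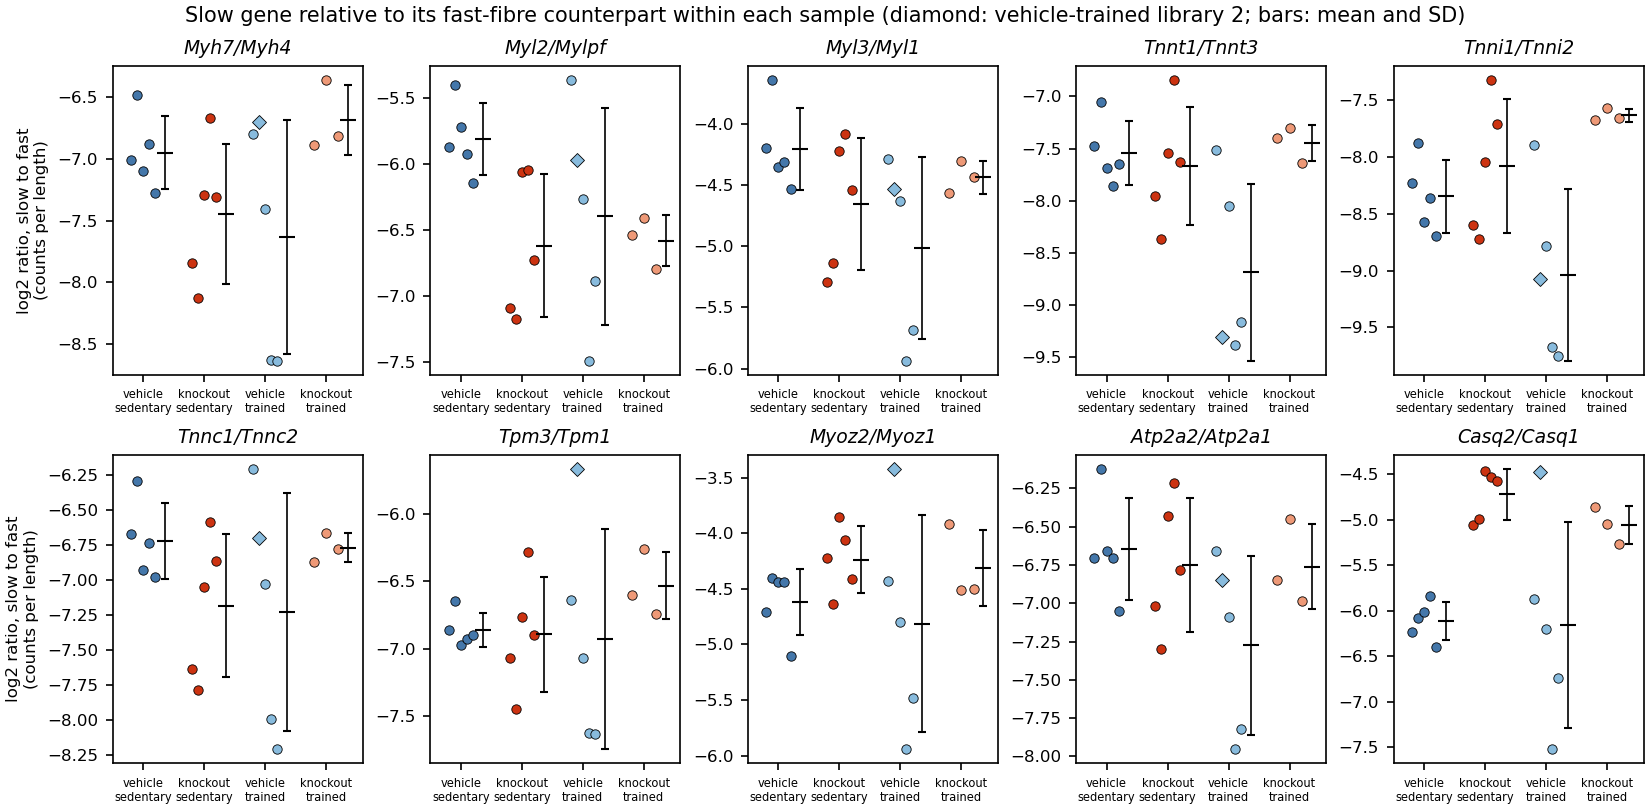
Log2 ratio of each slow gene to its fast counterpart in counts per length (vertical axes) in every sample of the 4 groups, with the mean and SD, and a diamond for vehicle-trained library 2. The Casq2 to Casq1 ratio separates the sedentary groups, at -6.11 and -4.72, and the Tnni1 to Tnni2 ratio separates the trained groups, at -9.04 and -7.64.

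The slow genes varied together from sample to sample within a group. Deviations of log2(CPM + 1) from the mean of each sample's own group were compared across the 18 samples, and all 45 pairs of members had a positive Spearman rho, with a median of 0.738 and a range of 0.207 to 0.973. The 36 pairs without Casq2 had a median of 0.800, and the 9 pairs with Casq2 one of 0.480. Without vehicle-trained library 2 the medians were 0.877 and 0.686. These are descriptions: members of one sample share its library, its scaling and the piece of muscle it came from.

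The same samples stood high or low for most members. Vehicle-sedentary library 2 was the highest of its group for 8 of the 9 members other than Casq2, vehicle-trained library 1 for 8 of 9 and knockout-sedentary library 4 for 7 of 9. Knockout-sedentary libraries 1 and 2 and vehicle-trained library 4 were below their group mean for all 10 members. The knockout trained sample made of libraries 1 and 4 was the lowest of its group for 8 of 9.

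The median spread of the slow genes was wider than the median over all genes tested in each group. The median SD of log2(CPM + 1) over the 9 members other than Casq2 was 0.293 in vehicle sedentary, 0.532 in knockout sedentary, 0.777 in vehicle trained and 0.395 in knockout trained samples. Over all genes tested it was 0.172, 0.179, 0.350 and 0.206. Casq2 had an SD of 0.0842 in vehicle sedentary, 0.316 in knockout sedentary, 0.810 in vehicle trained and 0.10 in knockout trained samples.

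**Figure D4:**
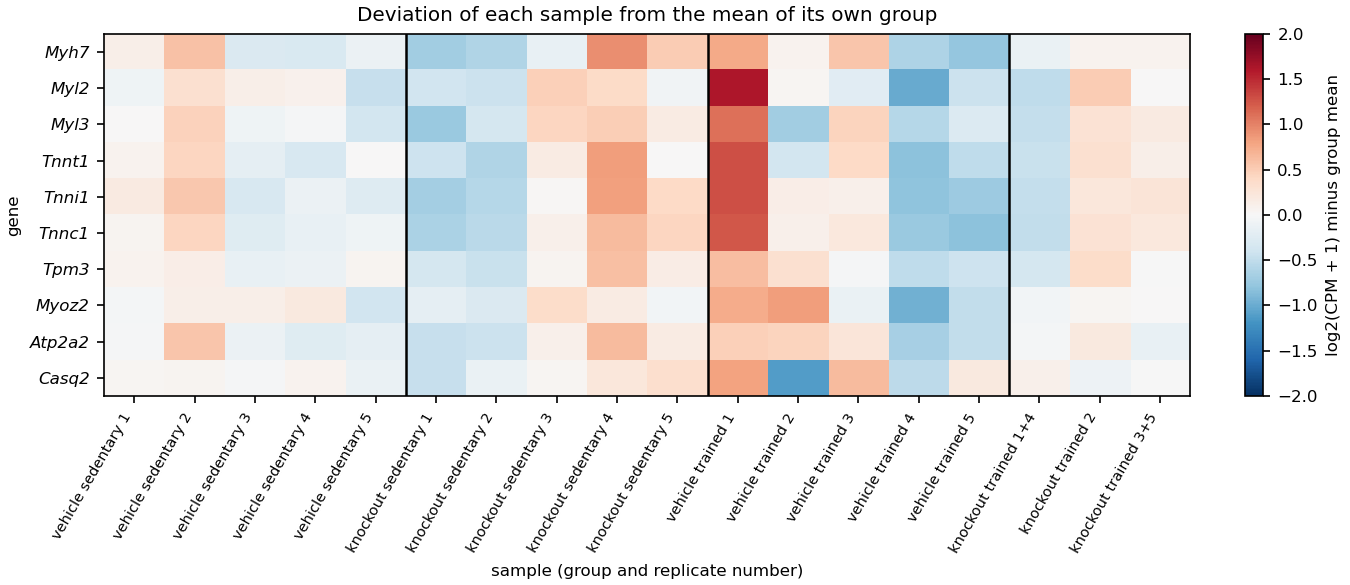
Deviation of each of the 18 samples (columns, by group and replicate number) from the mean of its own group, in log2(CPM + 1), for the 10 slow fibre genes (rows); red is above and blue below the group mean. Columns are mostly of one colour, as in vehicle-trained library 1, above its group mean for all 10 genes, and vehicle-trained library 4, below it for all 10.

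Outside the lists used here, the genes whose within-group deviations were most like the mean of the 10 members, among 4174 genes of at least moderate level, were Cd36, Fabp3, Fabp3-ps1, Eci1 and Hadh, with Spearman rho of 0.907, 0.897, 0.897, 0.891 and 0.874 across 18 samples. Cd36 encodes a fatty acid transporter of the cell surface and Fabp3 the fatty acid binding protein of heart and slow muscle, while Eci1 and Hadh encode enzymes of fatty acid oxidation. Fabp3-ps1 is a pseudogene copy of Fabp3, so their reads may be split between them. With vehicle-trained library 2 left out the 5 nearest were Fabp3, Fabp3-ps1, Cd36, Ech1 and Echs1, with rho from 0.946 to 0.887.

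Among 19 other slow or oxidative fibre genes, 17 were tested. In sedentary muscle 1 was higher and 0 lower with the knockout label, and in trained muscle 3 were higher and 0 lower, against 2.33% and 3.29% of all genes called. Medians were 0.12 and 0.32 on the log2 scale. The called genes included both small inhibitors of the SERCA pumps. Sln, which encodes sarcolipin, was at 2.43, 2.92, 2.65, 4.19 and 2.90 CPM in vehicle sedentary libraries and at 35.7, 63.6, 17.1, 15.4 and 16.1 CPM in knockout sedentary libraries. All knockout-labelled values were higher, with a log2 change of 3.29 (SE 0.510, edgeR adjusted p = 0.000911). In trained muscle the log2 change of Sln was 1.70 (SE 0.526, adjusted p = 0.0920), and 2.33 with an adjusted p of 0.00378 without vehicle-trained library 2, whose 14.1 CPM lay within the knockout-labelled range.

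Pln encodes phospholamban, which holds back the slow pump encoded by Atp2a2. In trained muscle it was at 5.90, 0.790, 4.23, 3.22 and 4.49 CPM with vehicle and at 23.0, 7.70 and 14.6 CPM with the knockout label. The groups did not overlap, with a log2 change of 2.03 (SE 0.395, edgeR adjusted p = 0.00708). In sedentary muscle all 5 knockout-labelled values of Pln, from 12.5 to 25.9 CPM, were above the vehicle values of 6.11 to 8.65 CPM, but the log2 change of 1.27 (SE 0.347) did not pass (adjusted p = 0.0682). It passed without vehicle-trained library 2 (adjusted p = 0.00206), as 6.98% of all genes did there, since that library enters through the shared estimate of spread. The pump gene Atp2a2 itself was not called in any comparison. The other called genes of this list, both in trained muscle, were Myom3, a protein of the sarcomere's M-band (log2 change 1.21, adjusted p = 0.0275), and Mb, the oxygen carrier myoglobin, also listed as a fibre marker (0.96, adjusted p = 0.0438).

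**Figure D5:**
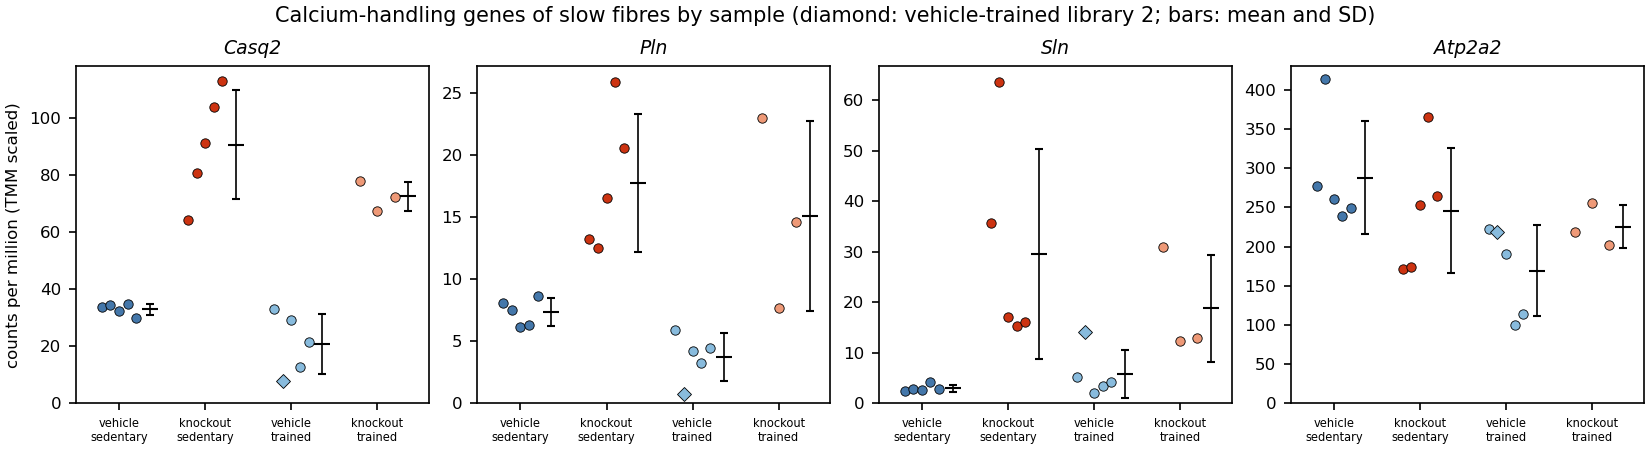
Level in CPM (vertical axes from 0) of the calcium store gene Casq2, the pump inhibitors Pln and Sln and the pump gene Atp2a2 in every sample of the 4 groups, with the mean and SD, and a diamond for vehicle-trained library 2. Casq2 and Pln stand higher in every knockout-labelled sample than in the vehicle samples of the same training state, while Atp2a2 overlaps.

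Of the 30 genes listed as regulators of the slow programme, all 30 were tested. In sedentary muscle 1 rose and 2 fell with the knockout label, where 2.33% of all genes were called. In trained muscle 1 rose and 1 fell, where 3.29% of all genes were called. Tead4, a factor that binds the CATTCC motif, rose in both, by 1.96 (SE 0.296, edgeR adjusted p = 0.000708) and 1.51 (SE 0.321, adjusted p = 0.0131) on the log2 scale. Fnip1, a folliculin partner in the sensing of cellular energy, fell in both states, with all knockout-labelled values lower and log2 changes of -0.75 (SE 0.115, adjusted p = 0.000810) and -0.88 (SE 0.137, adjusted p = 0.00118). Vgll2, a partner of TEAD factors in muscle, fell in sedentary muscle (-1.08, SE 0.276, adjusted p = 0.0456) and had -0.58 in trained muscle (adjusted p = 0.366). The list's median was -0.08 in sedentary and -0.01 in trained muscle.

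Of 16 fast fibre contractile genes, 0 were called in sedentary muscle and 1 in trained muscle, against 2.33% and 3.29% of all genes. The called gene was Tnnc2, the calcium-binding troponin of fast fibres (log2 change 0.60, SE 0.162, edgeR adjusted p = 0.0494, with overlapping values). Medians of the 16 fast genes were -0.11 and 0.27, against -0.23 and 0.82 for the 9 slow members other than Casq2. The embryonic and neonatal heavy chains Myh3 and Myh8, found in forming and regenerating fibres, were at group means of 1.76 to 4.15 CPM and were not called. As no gene of the table was called by edgeR for training or for the interaction, none of these 4 lists had a call there.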

How the data were processed

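The authors deposited estimated counts per gene for all 20 libraries (72.0% of the values are whole numbers, and columns sum to 10610333 to 19153527 although their name is that of another unit). Per the submitters' processing notes, Partek, STAR 2.7.8a and DESeq2 were named as tools and mm10 and GRCm39 as builds, with no roles. Per the labels' protocols, RNA was extracted with Trizol and a column kit. Strandedness is not given in the sources used here.

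Counts were rounded. All 190 pairs of libraries were compared for noise beyond sampling. The pairs whose noise at high counts was under 1.5 times that at low counts, 2 in all (ratios 0.873 and 1.25, the next pair 2.31), were summed, which left 18 samples. A gene was tested if 5 or more of the 20 libraries had a CPM of 1 or higher. The test was the two-sided quasi-likelihood test of edgeR 4.0.16 (R 4.3.3), with TMM scaling and 4 group means. P-values were adjusted by Benjamini-Hochberg over 14359 genes, with a threshold of 0.05. The SE is the absolute log2 change divided by the square root of F. The 5 contrasts were both genotype effects, both training effects and their interaction. The Myh7 share and Arntl were compared by exact permutation tests (SciPy 1.17.1), doubling the smaller tail. Exon lengths and overlaps came from GENCODE M21, in which 70 identifiers were missing. Their build may not be the authors', so it was used for lengths and overlaps only.

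On simulated counts, 100 genes drawn at random from all tested were changed at each size. The test recovered 65 genes at a log2 change of 1 and 90 at 2 in the sedentary comparison, and 50 and 90 in the trained one. The numbers of false calls were 4 and 3.

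The members and the lists were chosen with earlier results of these data known. Named genes are the 10 members, Arntl, the fast counterparts, the 5 nearest genes by within-group deviations with a mean log2 CPM of at least 5, and up to 5 called genes of each list by size of change. Alternatives were RLE scaling, DESeq2 1.42.0, no filter on low counts, 20 separate libraries, only the groups compared, limma 3.58.1 on log2(CPM + 1) and log2(CPM + 0.1), the replicate number as a block, and leaving out each sample.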

Additional observations from a re-analysis of the deposited data

Results flagged for a closer look

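Each measure of the 10 members, their 10 fast counterparts, Arntl and the Myh7 share was checked for a single sample far from the others of its group, in the 3 groups of 5 samples. Of 66 such groups 4 held one, where chance alone gives about 1 in 20, or 3.3. The slow genes varied together within groups, so the 66 checks are not independent. Myl2 stood at 357.2 CPM in vehicle-trained library 1, against 119 CPM or less in the other 4 libraries. Tnni1 stood at 44.3 CPM in the same library, against 19.3 CPM or less. Atp2a2 stood at 414.4 CPM in vehicle-sedentary library 2, against 277 CPM or less. Arntl stood at 143.7 CPM in vehicle-trained library 2, against a group median of 6.77 CPM. Casq1 is not among the 4, though it was at 125 CPM in the same library, against a group median of 1527 CPM. The 4 therefore do not cover every sample that stood apart.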

How the results depend on the processing

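In sedentary muscle the count of members called for the knockout label was 1 in all 26 alternatives, and the count for each training effect and for the interaction was 0 in every one run. In trained muscle the count of 1, where 3.29% of all genes were called, became 3 with DESeq2 (Casq2, Tnni1 and Tnnt1; 6.32% of all genes), 3 with all 20 libraries as separate samples (8.53%), 2 with limma on log2(CPM + 1) (3.06%) and 0 with only the 2 groups compared (0.139%). Leaving out 1 sample in turn gave 1 to 5 (5 without vehicle-trained library 1, with 4.38% of all genes, and 2 without library 2, with 8.66%).

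With the replicate number as a block, which needs all 20 libraries as separate samples, the trained count was 2 (Casq2 and Tnni1; 6.83% of all genes) and the sedentary count 1. The numbers were not taken as pairing the samples: same-numbered libraries of different groups had a median correlation of deviations of 0.0284 (30 pairs, -0.394 to 0.351), and 5 of 20 libraries correlated best with their own number.

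The sedentary difference in the Myh7 share, in percentage points, ran from -0.250 to -0.111 when 1 sample was left out (-0.250 without knockout-sedentary library 4, exact permutation p = 0.0317). The trained log2 difference of Arntl ran from -0.42 to 0.67 and reversed to 0.67 without vehicle-trained library 2 (exact permutation p = 0.0571).

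Leaving out 1 sample reversed 5 small changes of members, none of them called: Tnni1 and Myoz2 with the knockout label in sedentary muscle (-0.083 to 0.34 and -0.062 to 0.11), Myl2 and Myoz2 with training in vehicle muscle (-0.70 to 0.18 and -0.27 to 0.14), and Atp2a2 with training in knockout-labelled muscle (-0.22 to 0.063). The causes were not tested. The Casq2 to Casq1 ratio was also recomputed without each sample, a choice made after seeing the data: the difference ran from 1.32 to 1.48 in sedentary and from 0.76 to 1.52 in trained muscle. With 3 knockout trained samples, 50 of 100 simulated log2 changes of 1 were recovered, which limits what the trained comparison could call. The changed genes were drawn from all tested, and the slow genes had a wider median spread. The share recovered may therefore be lower for the slow genes.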

Other observations

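More regulators of the slow programme were called when vehicle-trained library 2 was left out. In sedentary muscle 1 of the 30 was then higher and 5 were lower with the knockout label, where 6.98% of all genes were called. Besides Tead4, Fnip1 and Vgll2, the called genes were Nfatc2, a calcineurin-regulated factor (log2 change -0.54, edgeR adjusted p = 0.0163), Ppargc1a, the coactivator PGC-1alpha of mitochondrial genes (-0.54, adjusted p = 0.0148), and Tead1, a relative of Tead4 (-0.45, adjusted p = 0.0306). In trained muscle 2 were higher and 2 were lower, where 8.66% of all genes were called. Those called included the nuclear receptor gene Esrra (0.40, edgeR adjusted p = 0.0247) and Nfatc2 (-0.60, adjusted p = 0.0281).

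Among the other slow or oxidative fibre genes, 2 were lower in sedentary muscle in the same fit, where 6.98% of all genes were called. They were Mybpc1, a myosin-binding protein of slow fibres (log2 change -0.75, edgeR adjusted p = 0.0187, all knockout-labelled values lower), and Lmod2, a thin filament length regulator (-0.73, adjusted p = 0.0295). With all samples Mybpc1 had an edgeR adjusted p of 0.0541, and means of 750.3 ± 93.4 and 444 ± 96.7 CPM (SD, n = 5 each). These genes were named after their values without that library had been seen.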
